A study of Homo sapiens with 24 samples.

Results

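The genes described here are 10 components and response genes of the TGF-β pathway: the ligand genes *TGFB1*, *TGFB2* and *INHBA*, the receptor genes *TGFBR1* and *TGFBR2*, the signal transducer *SMAD3*, the negative regulators *SMAD7*, *SKIL* and *PMEPA1*, and the matrix gene *TGFBI*. They were picked by name, with earlier results of these data known, from the 58051 Ensembl gene IDs counted in every library. The study sequenced RNA of the human colorectal cancer (CRC) cell lines HT29, HCT116 and SW480 to ask what transcription depends on β-CATENIN, the transcriptional co-activator of the WNT pathway encoded by *CTNNB1*. For each line there were 2 clones (WT) that had been exposed to CRISPR/Cas9 and kept the *CTNNB1* sequence of their line. In 2 further clones of each line (KO), exon 7 of both *CTNNB1* alleles had been deleted with the same system. This shifts the reading frame and creates an early stop codon. WT thus means unedited at *CTNNB1*. The paper lists a gain-of-function *CTNNB1* mutation in HCT116 and inactivating *APC* mutations in HT29 and SW480. Libraries of each clone came from a round A and a round B, 24 in all, of which 12 were WT and 12 KO.

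The WT clones were 11 and 40 of HT29, 4 and 6 of HCT116, and 4 and 5 of SW480. The KO clones were 28 and 38 of HT29, 44 and 47 of HCT116, and 17 and 21 of SW480. All cells grew in the same medium with fetal calf serum and the labels name no added ligand or inhibitor of the pathway. Each clone stands for 1 sorted cell, and rounds of a clone are not independent clones, so the p-values below measure the spread among 4 libraries of 2 clones. The KO clones of SW480 are described in the study as ceasing to divide upon prolonged culture, and the time at which RNA was taken was not given in the sources used here.

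TGF-β ligands and activins bind a pair of transmembrane kinases. The type II receptor phosphorylates the type I receptor, which phosphorylates SMAD2 and SMAD3, and these enter the nucleus together with SMAD4 to regulate transcription. Cells switch on brakes of the pathway, among them *SMAD7*, *SKIL* and *PMEPA1*, as part of the response itself. In the intestinal epithelium the pathway restrains growth, and CRC cells commonly carry lesions in it: HCT116 cells are mismatch-repair deficient and carry frameshifts in *TGFBR2*, while HT29 and SW480 cells have lost functional SMAD4.

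The libraries held 22297049 to 29068378 reads on genes. *CTNNB1* itself fell in the KO clones of all 3 lines, with log2 fold changes of −4.33 (HT29), −5.77 (HCT116) and −5.54 (SW480). One library stood apart: KO 47A of HCT116 had reads on 35449 genes compared with 20256 to 24944 in the others, of which KO 38B of HT29 had the fewest, and results that change without KO 47A are given both ways. Of 10 epithelial markers, 7 or 8 were above 3 reads in every library of each group, led by the keratin gene *KRT8*, and their summed normalized counts ranged from 133703 to 759756. Markers of other cell types summed to less than the epithelial ones and were not constant. The sum of 8 fibroblast markers was 14.2 to 26.9 for WT and 109 to 1212 for KO libraries of HT29, led by *LUM* in the latter, while it was 289 to 444 and 329 to 410.0 in HCT116 and 220 to 567 and 246 to 299 in SW480. Summed over 4 endothelial markers, the SW480 libraries had 11.6 to 29.3 (WT) and 118 to 236 (KO), led by *VWF*, and no other library exceeded 38.5. The 6 immune markers summed to 17692 to 31388 in HT29 cells, of which all but 331 at most came from *LYZ*, to 23.5 at most in HCT116, and to 42.1 to 54.6 (WT) and 174 to 250 (KO) in SW480, led by *CD14*. The part of these markers and of the KO 47A library in the results below was not tested, and in bulk RNA a change in cell makeup and a change in RNA per cell cannot be told apart.

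As a view of the DNA next to 3 genes whose KO differences were among the largest, the 250 bases before the most upstream RefSeq transcript start are given 5′ to 3′ for *TGFBI* (chr5:136028738-136028987, plus strand), *SMAD7* (chr18:48950966-48951215, minus strand) and *PMEPA1* (chr20:57711473-57711722, minus strand) in the build GRCh38.p14, taken from RefSeq. Capitals mark the core letters CTTTG of a TCF/LEF site and CAGAC of a SMAD-binding element, searched on both strands with no overlap between them.
TGFBI: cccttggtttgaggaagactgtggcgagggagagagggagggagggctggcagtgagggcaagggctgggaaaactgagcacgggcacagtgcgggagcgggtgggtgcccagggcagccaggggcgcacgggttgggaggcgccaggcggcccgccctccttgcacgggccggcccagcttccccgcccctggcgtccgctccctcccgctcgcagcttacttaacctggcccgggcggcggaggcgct
SMAD7: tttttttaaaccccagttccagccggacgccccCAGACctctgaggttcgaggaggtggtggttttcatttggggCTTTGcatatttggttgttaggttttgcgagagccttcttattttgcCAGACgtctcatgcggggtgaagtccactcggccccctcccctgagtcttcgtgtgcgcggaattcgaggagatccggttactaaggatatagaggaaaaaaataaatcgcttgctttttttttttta
PMEPA1: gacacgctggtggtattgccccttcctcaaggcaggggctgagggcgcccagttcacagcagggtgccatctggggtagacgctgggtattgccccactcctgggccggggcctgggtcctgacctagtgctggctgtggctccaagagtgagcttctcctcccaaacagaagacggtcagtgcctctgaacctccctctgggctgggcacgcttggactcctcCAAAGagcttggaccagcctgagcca
In the *SMAD7* window CTTTG began 175 bases before the start and CAGAC 217 and 128 bases before it, in the *PMEPA1* window CTTTG was on the reverse strand (printed CAAAG) 26 bases before the start, and the *TGFBI* window held neither. Such short words are common: of 35116 RefSeq windows of this length, 42.1% held CTTTG and 38.0% held CAGAC. Over all starts of the 10 genes, 13 of 27 windows held CTTTG and 12 of 27 held CAGAC. A match is a description of letters and not a bound site.

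Between KO and WT clones, 1 of the 10 genes was called in HT29, 6 in HCT116 and 8 in SW480. Values are normalized counts, that is, reads divided by a size factor per library, and tests are limma fits on log2(normalized count + 1) across all genes, with genes called at an adjusted p under 0.05. In HT29 cells 9 of the 10 genes passed the filter on low values (at least 10 in 4 or more libraries), 1 was lower in KO clones and none was higher, against a background of 0.476% of all genes tested called lower and 2.08% called higher. At an unadjusted p under 0.05 the HT29 count was 2, *TGFBI* and *PMEPA1*, both lower, out of 9 genes, where 16.2% of all genes passed. In HCT116 cells 8 genes passed the filter, 4 were lower and 2 higher, against 5.93% and 8.05% of all genes. Of the higher ones, *PMEPA1* met the filter only through its KO libraries, so counting it as higher is not independent of that filter. In SW480 cells all 10 passed, 2 were lower and 6 higher, against 22.1% and 26.1% of all genes. All KO libraries lay on 1 side of all WT libraries for 2 of the 9 tested genes of HT29, 5 of 8 of HCT116 and 9 of 10 of SW480, where the shares over all genes tested were 13%, 20.5% and 46.2%. Among those of the 10 genes that were tested, log2 fold changes had a median of 0.00 (HT29), −0.64 (HCT116) and 0.77 (SW480), beside medians over all genes of 0.03, −0.01 and 0.00.

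**Figure D1:**
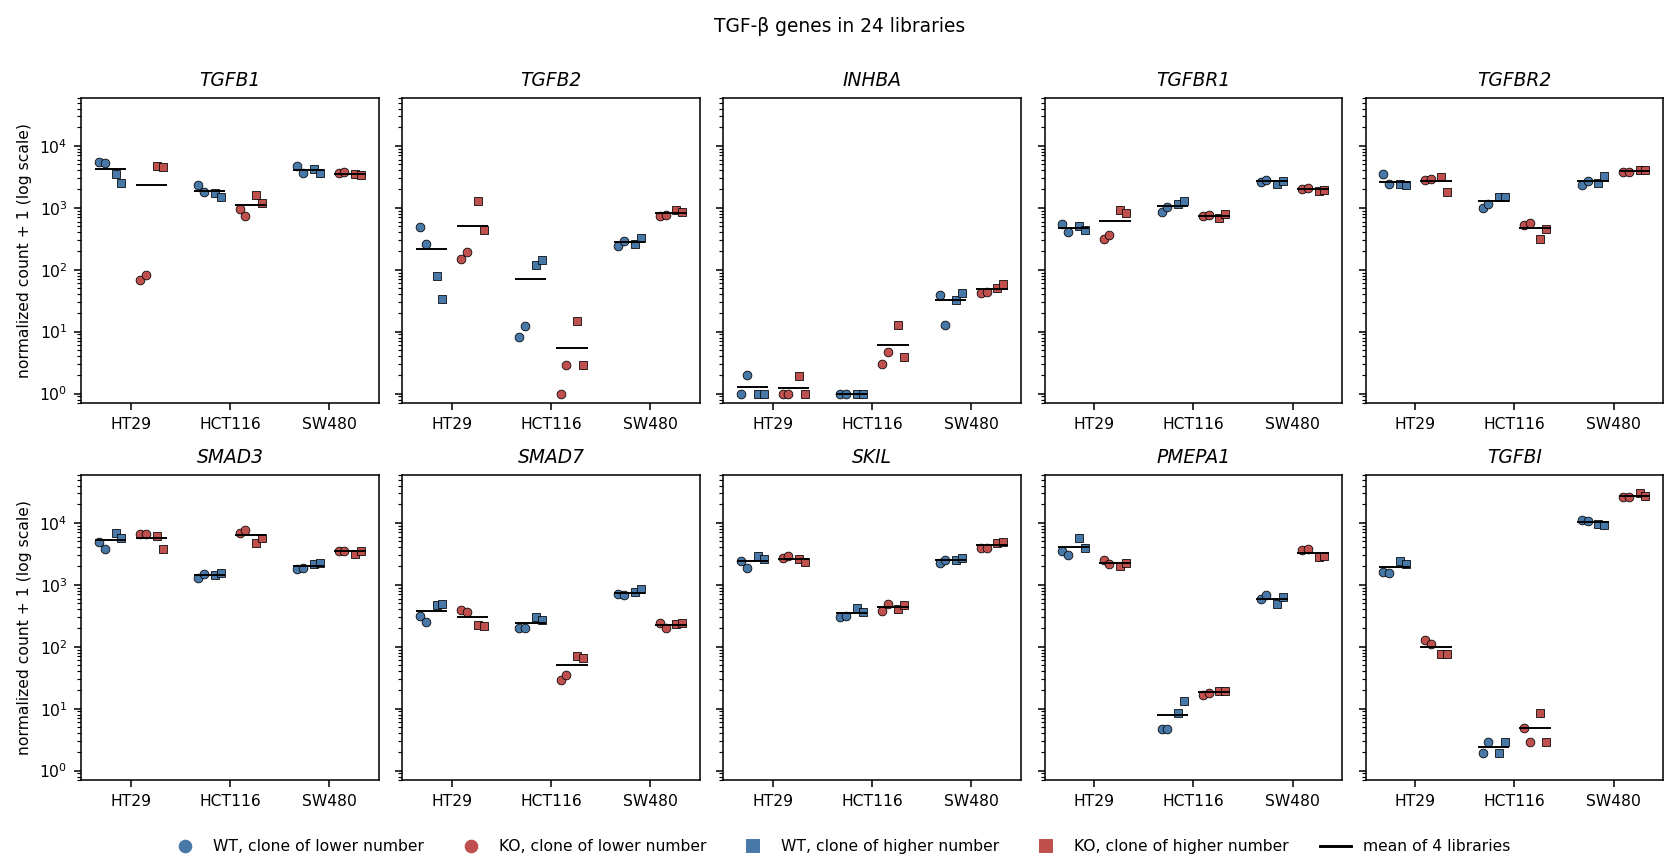
Normalized counts + 1 on a log scale for each of the 10 genes in the 24 libraries. Points of the same color and shape are rounds A and B of 1 clone, blue for WT and red for KO, and bars are means of 4 libraries. *TGFBI* was lower in every KO library of HT29 (75.2 to 128) than in any WT library (1570.2 to 2398) and higher in every KO library of SW480, and *TGFB1* was low in KO clone 28 of HT29 alone.

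In what follows, the 4 values of a group are listed as rounds A and B of the clone with the lower number, then rounds A and B of the other clone.

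*TGFB1* (chr19:41807492-41859827, GRCh37) encodes the most widely expressed TGF-β ligand. In HT29 cells its normalized counts were 5567, 5241, 3559 and 2503 in WT and 67.4, 82.2, 4755 and 4533 in KO libraries. KO clone 28 was far below all WT libraries, whereas KO clone 38 lay within their range. Over both KO clones the log2 fold change was −2.76 (95% interval −5.99 to 0.47, adjusted p = 0.376), and it was −5.73 (adjusted p = 0.000509) with clone 28 as the only KO clone and 0.21 (adjusted p = 0.702) with clone 38 as the only KO clone. HCT116 libraries had 2288, 1824, 1727 and 1496 in WT and 952, 725, 1598 and 1191 in KO clones. Here clone 44 and KO 47B were below all WT libraries, and KO 47A alone reached into their range. *TGFB1* fell with a log2 fold change of −0.76 (SE 0.22, adjusted p = 0.0418), and of −0.95 (adjusted p = 0.0101) without KO 47A. The call was lost without any 1 of the libraries other than KO 47A, the adjusted p then being 0.0510 to 0.105. It was also lost in edgeR (adjusted p = 0.0543) and with clone as a random effect (adjusted p = 0.0959), among others. Only 8 of 21 alternatives kept the call, and the highest adjusted p among the alternatives was 0.242. In SW480 cells the values were 4694, 3595, 4233 and 3673 in WT and 3589, 3726, 3473 and 3326 in KO libraries, which overlapped, and the difference of −0.19 (95% interval −0.39 to 0.01, adjusted p = 0.107) did not pass the test. The spans of *HNRNPUL1*, *CCDC97* and *TMEM91* overlap that of *TGFB1* on the other strand. The library kit does not keep the strand, so reads from any stretch the genes share cannot be assigned by strand. Whether their exons overlap was not tested.

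*TGFB2* (chr1:218518678-218617961), a further TGF-β ligand, rose in SW480 and varied between clones in the other lines. SW480 cells gave 244, 289, 259.7 and 320.03 in WT and 733, 775, 925 and 841 in KO libraries. All KO libraries were above all WT libraries, and *TGFB2* rose with a log2 fold change of 1.56 (SE 0.11, adjusted p = 1.63e-06). HCT116 cells had 7.34, 11.1, 117 and 142 in WT and 0, 1.88, 13.9 and 1.90 in KO libraries. WT clone 6 was above every KO library, but WT clone 4 overlapped with KO 47A. The HCT116 difference of −3.44 (95% interval −5.90 to −0.97, adjusted p = 0.0679) missed the threshold, and it was −4.15 (adjusted p = 0.0357) without KO 47A and −4.14 (adjusted p = 0.0409) without WT 4A. It also passed without KO clone 47 (−4.41, adjusted p = 0.0498), without WT clone 4 (−5.28, adjusted p = 0.00800), in edgeR (adjusted p = 0.0358) and in DESeq2 (adjusted p = 0.0253), that is, in 6 of 20 alternatives. The KO counts rest on 17 reads in all. For HT29 the values of 495, 262, 79.0 and 32.6 in WT and 149.9, 194, 1270.1 and 442 in KO libraries overlapped, with a log2 difference of 1.39 (95% interval −0.70 to 3.48, adjusted p = 0.479). *TGFB2-AS1* overlaps the gene on the other strand and *TGFB2-OT1* on the same strand.

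*INHBA* (chr7:41706766-41745432) encodes the subunit of activin A, a ligand that signals through its own receptors to the same SMADs. It was close to absent outside SW480 cells. HT29 cells had 1 read in the 4 WT libraries together and 1 in the 4 KO libraries together, which is under the limit of 3 reads that a count of 0 allows. In HCT116 cells there was no read in WT libraries and there were 2, 4, 11 and 3 reads in KO libraries. After scaling, these KO reads were 7.07 times a floor of 3 reads over the WT group. Of the KO reads 11 came from KO 47A, without which the figure was 4.12 per library. Both figures take the KO reads as exact, so they are not lower bounds. The gene was not tested in HCT116 because of the filter on low values. SW480 libraries had 38.4, 11.9, 31.9 and 41.1 in WT and 41.4, 43.1, 50.4 and 58.6 in KO clones. All 4 KO libraries were above the WT libraries, the highest of which was 41.1, but the log2 difference of 0.76 (95% interval −0.03 to 1.54, adjusted p = 0.103) did not pass the test. The span of *INHBA-AS1* overlaps that of *INHBA* on the other strand, and whether its reads entered the counts was not tested.

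*TGFBR1* (chr9:101866320-101916474), the type I receptor kinase, fell modestly in 2 of the 3 lines. HCT116 libraries had 840.3, 1030.2, 1150.4 and 1269.9 in WT and 733, 771, 677 and 797 in KO clones. The groups did not overlap, and the log2 fold change was −0.51 (SE 0.14, adjusted p = 0.0293). This call was lost without KO 44A, KO 44B, KO 47A, WT 4B, WT 6A or WT 6B, with adjusted p from 0.0581 to 0.0870, and with clone as a random effect (adjusted p = 0.0886). In all, 10 of 21 alternatives kept it, and the highest adjusted p among the alternatives was 0.251. In SW480 cells the values were 2583, 2829, 2463 and 2740.3 in WT and 2029, 2058, 1857 and 1959 in KO libraries. Again no KO library reached the WT range, and *TGFBR1* fell with a log2 fold change of −0.42 (SE 0.07, adjusted p = 0.000479). In HT29 cells the KO clones differed in direction, with 547, 409.5, 502 and 428 in WT and 312, 368, 912 and 826 in KO libraries. Clone 28 was below and clone 38 above all WT libraries, and the log2 difference over both was 0.21 (95% interval −0.60 to 1.02, adjusted p = 0.796).

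*TGFBR2* (chr3:30648093-30735634), the type II receptor that binds the ligand first, moved in opposite directions in HCT116 and SW480. In HCT116 cells it was 984, 1169, 1514 and 1488 in WT and 526, 568, 310.4 and 450.1 in KO libraries. Every KO library was below every WT library, and the KO mean was 36.0% of the WT mean. The log2 fold change was −1.49 (SE 0.20, adjusted p = 0.000695) and passed the test in all 21 alternatives. SW480 cells had 2356, 2681, 2478 and 3202 in WT and 3764, 3713, 4096 and 4116 in KO libraries. Here every KO library was above every WT library, and *TGFBR2* rose with a log2 fold change of 0.56 (SE 0.10, adjusted p = 0.000765). In HT29 cells 3472, 2383, 2441 and 2306 in WT and 2835, 2909, 3129 and 1822 in KO libraries overlapped, and the log2 difference was 0.00 (95% interval −0.49 to 0.49, adjusted p = 0.996).

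*SMAD3* (chr15:67356101-67487511), the receptor-activated SMAD that binds DNA, rose in HCT116 and SW480. Its values in HCT116 cells were 1283, 1465, 1448 and 1523 in WT and 6905, 7703, 4782 and 5690.4 in KO libraries. The lowest KO library was over 3 times the highest WT library. The log2 fold change was 2.11 (SE 0.14, adjusted p = 3.77e-06). SW480 libraries had 1768, 1898, 2129 and 2286 in WT and 3551, 3518, 3189.8 and 3538 in KO clones, also without overlap. The log2 fold change was 0.78 (SE 0.09, adjusted p = 4.09e-05), and in both lines it passed the test in all 21 alternatives. HT29 cells, with 4913, 3740.4, 6787 and 5641 in WT and 6514, 6640.01, 6157 and 3806 in KO libraries, showed overlapping groups and a log2 difference of 0.13 (95% interval −0.42 to 0.68, adjusted p = 0.812). *SMAD4*, the partner of SMAD3, was present at 1416 ± 76.8 (SD, n = 4) in HCT116, 224 ± 41.1 in HT29 and 29.1 ± 5.71 in SW480 WT libraries, in that order of level. It did not pass the test in KO clones, with log2 differences of 0.35 (95% interval −0.11 to 0.81, adjusted p = 0.427) in HT29, 0.09 (95% interval −0.12 to 0.29, adjusted p = 0.582) in HCT116 and 0.28 (95% interval −0.23 to 0.79, adjusted p = 0.340) in SW480.

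*SMAD7* (chr18:46446223-46477335), the inhibitory SMAD that takes receptors out of action, fell in HCT116 and SW480. HCT116 libraries had 201, 200.5, 296 and 273 in WT and 28.5, 33.9, 70.6 and 65.7 in KO clones. The groups were far apart, with clone 44 lower than clone 47. The log2 fold change was −2.35 (SE 0.30, adjusted p = 0.000498). In SW480 cells there were 699, 696, 753 and 839.7 in WT and 236, 198, 229.7 and 237 in KO libraries. The KO mean was 30.2% of the WT mean and no KO library reached the WT range, with a log2 fold change of −1.72 (SE 0.10, adjusted p = 3.53e-07). In HT29 cells KO clone 28 lay within and KO clone 38 below the WT range, with 316, 246, 477 and 482 in WT and 395, 367, 221 and 211 in KO libraries. The HT29 difference was −0.35 (95% interval −1.05 to 0.35, adjusted p = 0.597) on the log2 scale.

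*SKIL* (chr3:170075130-170114623), which encodes the SMAD co-repressor SnoN, passed the test in SW480 only. SW480 libraries had 2234, 2537, 2478 and 2689 in WT and 3913, 3863, 4714 and 4826 in KO clones. The groups did not overlap, and *SKIL* rose with a log2 fold change of 0.80 (SE 0.09, adjusted p = 5.85e-05). In HCT116 cells 301, 316, 421 and 367 in WT and 380.2, 489, 412 and 478 in KO libraries overlapped, and the log2 difference was 0.33 (95% interval 0.00 to 0.66, adjusted p = 0.166). HT29 cells had 2424, 1852, 2957 and 2563 in WT and 2679.5, 2922, 2589 and 2297 in KO libraries, with a log2 difference of 0.11 (95% interval −0.28 to 0.50, adjusted p = 0.769). Of these 2 lines' differences, neither passed in any of 21 alternatives.

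*PMEPA1* (chr20:56223448-56286592), a membrane protein that sequesters receptor-activated SMADs away from the receptor, rose in SW480 and, at values near the filter limit, in HCT116. SW480 cells had 592, 677, 485 and 642 in WT and 3659, 3799, 2794 and 2936 in KO libraries. Every KO library was over 4 times the highest WT library, and *PMEPA1* rose with a log2 fold change of 2.46 (SE 0.13, adjusted p = 1.82e-07). In HCT116 cells the gene was barely expressed, with 3.67, 3.71, 7.39 and 12.4 in WT and 15.7, 17.0, 18.2 and 18.1 in KO libraries. The groups did not overlap, and the log2 fold change was 1.37 (SE 0.40, adjusted p = 0.0411). The gene met the filter on low values only through its KO libraries, the group where it was high, so this call is weak. It was lost without any 1 of the libraries other than WT 6B (adjusted p from 0.0624 to 0.105). The call was also lost in DESeq2 (adjusted p = 0.0542) and with clone as a random effect (adjusted p = 0.115), among others. Only 6 of 20 alternatives kept it, and the highest adjusted p among the alternatives was 0.233. HT29 cells pointed the other way, with 3527, 3027, 5693 and 3875 in WT and 2476, 2197, 2014 and 2247 in KO libraries. No KO library reached the WT range, yet the log2 difference of −0.81 (95% interval −1.27 to −0.36, adjusted p = 0.0785) missed the threshold in limma and in edgeR, and passed in DESeq2, where it was −0.89 (adjusted p = 0.00397). The span of *NKILA* overlaps that of *PMEPA1* on the other strand, and whether its reads entered the counts was not tested.

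*TGFBI* (chr5:135364677-135399507) encodes a secreted adhesion protein of the extracellular matrix named for its induction by TGF-β. In HT29 cells its values were 1608, 1570.2, 2398 and 2189.7 in WT and 128, 108, 75.9 and 75.2 in KO libraries. The KO mean was 4.98% of the WT mean, both KO clones were low, and the gap was far wider than the spread within either group. It was the gene of the set called in HT29, with a log2 fold change of −4.33 (SE 0.24, adjusted p = 6.64e-05). The call was kept without any 1 library or clone and was lost with 1 mean per clone (adjusted p = 0.150). In SW480 cells, where the gene was already abundant, the values were 11126, 10692, 9682 and 9384 in WT and 25746, 26063, 29927 and 27002 in KO libraries. Every KO library exceeded every WT library, and *TGFBI* rose with a log2 fold change of 1.41 (SE 0.08, adjusted p = 2.2e-07). HCT116 cells had 1, 2, 1 and 2 reads in WT and 4, 2, 7 and 2 reads in KO libraries. At this depth the ratio of 2.65 had a 95% counting interval (exact binomial) of 0.972 to 8.34, so no difference was detectable. Without KO 47A, which held 7 of the 15 KO reads, the ratio per library was 1.83 (0.557 to 6.41), and intervals of this kind cover counting error only.

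**Figure D2:**
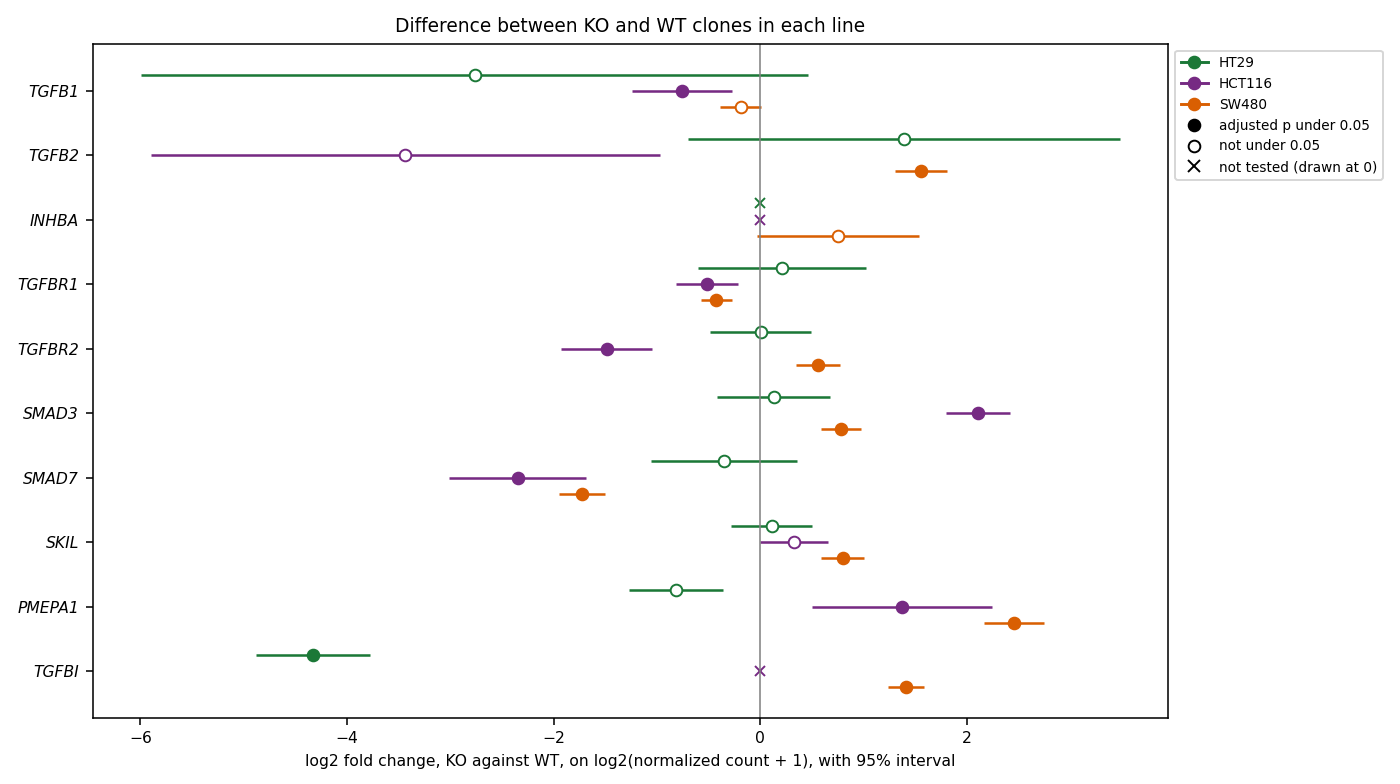
Log2 fold change of KO against WT for each gene and line, with 95% intervals from limma. Filled points have an adjusted p under 0.05, open points do not, and crosses mark genes not tested. HCT116 and SW480 lie on opposite sides of 0 for *TGFBR2*, and HT29 and SW480 for *TGFBI*.

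To see whether the effect of the knock-out itself differed between lines, the KO against WT differences were compared in 1 fit over the 24 libraries. In HCT116 against HT29, 7 of the 10 genes differed, where 7.25% of all genes did. The HCT116 difference was more negative for *TGFB2*, by −4.83 (SE 1.32, adjusted p = 0.0281), *TGFBR2*, by −1.49 (SE 0.27, adjusted p = 0.00118), and *SMAD7*, by −2.0 (SE 0.39, adjusted p = 0.00220). It was more positive for *SMAD3*, by 1.98 (SE 0.25, adjusted p = 2.28e-05), and for *PMEPA1*, by 2.18 (SE 0.35, adjusted p = 0.000345). For *PMEPA1* the HCT116 side rests on 29 WT and 70 KO reads in all. *TGFBI* and *INHBA* also passed, but both rest on a few reads per HCT116 library. *INHBA* met the filter over the 24 libraries only through those of SW480, so its call here is weak. The *TGFB2* call was lost with the round as a block (adjusted p = 0.0502) and without any 1 of KO 44A, KO 44B, WT 6A or WT 6B of HCT116 and KO 38A, KO 38B, WT 40A or WT 40B of HT29 (adjusted p from 0.0506 to 0.0652). In all, 12 of 23 alternatives kept it, and the highest adjusted p among the alternatives was 0.422.

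In SW480 against HT29, 4 genes differed, where 15.8% of all genes did. The difference between the KO effects was 5.74 (SE 0.38, adjusted p = 4.49e-10) for *TGFBI*, which fell in HT29 and rose in SW480, and 3.27 (SE 0.35, adjusted p = 5.43e-07) for *PMEPA1*. *SMAD7* was more negative in SW480, by −1.37 (SE 0.39, adjusted p = 0.0174), and *SKIL* more positive, by 0.68 (SE 0.20, adjusted p = 0.0196). The *SKIL* difference was kept in 21 of 24 alternatives and was lost, among others, without WT 40A of HT29 (adjusted p = 0.0502). In SW480 against HCT116, 4 genes differed as well, where 13.2% of all genes did. These were *TGFB2*, by 4.99 (SE 1.32, adjusted p = 0.0131), *TGFBR2*, by 2.05 (SE 0.27, adjusted p = 1.09e-05), *SMAD3*, whose rise was larger in HCT116, by −1.33 (SE 0.25, adjusted p = 0.000709), and *PMEPA1*, by 1.09 (SE 0.35, adjusted p = 0.0430). The *PMEPA1* difference was kept in 4 of 23 alternatives. It was lost without any 1 of the libraries of these lines other than WT 4A and WT 4B of HCT116 and KO 21A of SW480 (adjusted p from 0.0503 to 0.0930) and was 1.11 (adjusted p = 0.0558) without KO 47A. The fall of *SMAD7* was not shown to differ between HCT116 and SW480, with a difference of 0.62 (95% interval −0.18 to 1.43, adjusted p = 0.350). Since each pair of lines shares the libraries of 1 line with another pair, these comparisons are not independent.

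The levels of the genes in WT clones are given next. Per length, expressed as TPM (reads per base of summed exon length, scaled to the same total in every library), *TGFB1* was the most abundant gene of the set in HT29 (194 ± 71.5 TPM, SD, n = 4) and in HCT116 (88.3 ± 14.9). In SW480 it was next to *TGFBI*, at 202 ± 22.4 and 216 ± 12.7 TPM, which did not differ beyond their spread. *PMEPA1* had 105 ± 31.2 TPM in HT29, 17.1 ± 2.36 in SW480 and 0.186 ± 0.110 in HCT116. *TGFBI* ran from 216 ± 12.7 TPM in SW480 through 37.6 ± 7.89 in HT29 to 0.0287 ± 0.0116 in HCT116. The lowest gene in every line was *INHBA*, at 0.607 TPM in SW480 and under 0.01 in the others.

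**Figure D3:**
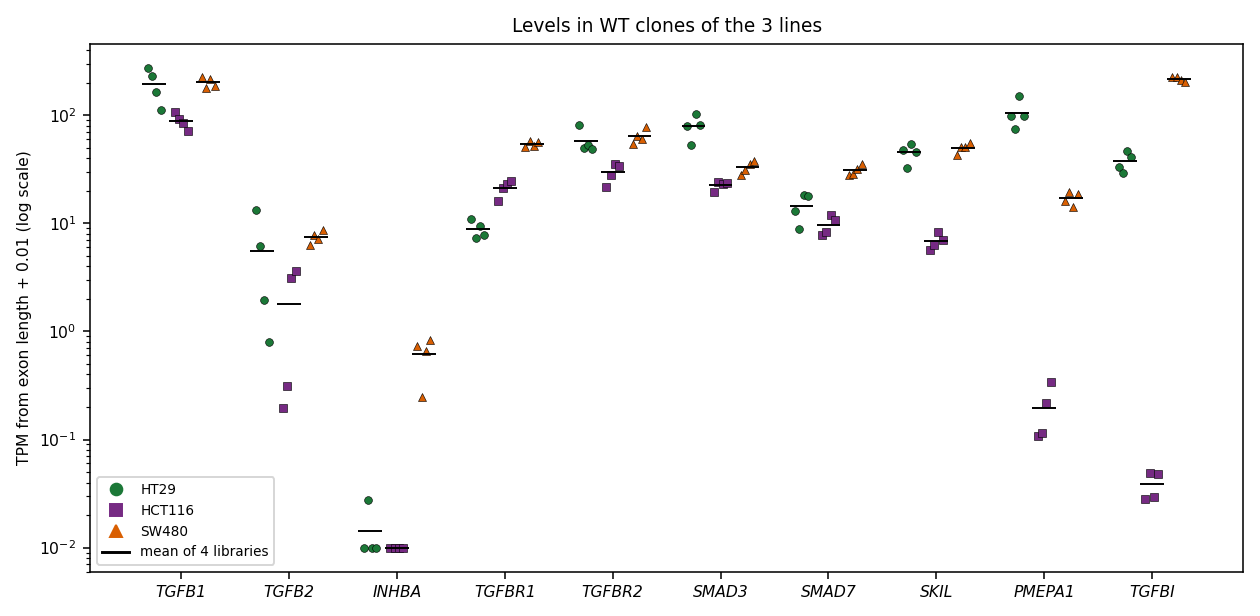
TPM from exon length, plus 0.01, on a log scale in the 4 WT libraries of each line. Bars are means of 4 libraries. HCT116 had the lowest mean for every gene other than *TGFBR1*, and *PMEPA1* and *TGFBI* spanned the widest range.

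Between WT HCT116 and WT HT29, 6 of 10 genes differed, where 58.4% of all genes tested did. *TGFBR1* was higher in HCT116, with a log2 difference in normalized counts of 1.18 (SE 0.24, adjusted p = 0.000173). Lower in HCT116 were *TGFBR2* at −1.04 (SE 0.19, adjusted p = 6.83e-05), *SMAD3* at −1.85 (SE 0.18, adjusted p = 6.32e-09), *SKIL* at −2.79 (SE 0.14, adjusted p = 6.81e-14), *PMEPA1* at −9.12 (SE 0.25, adjusted p = 1.28e-18), and *TGFBI*. As HCT116 WT libraries held 6 *TGFBI* reads in all, the HT29 level was 1397 times theirs with a counting interval of 641 to 3807. *TGFB1*, at −1.15 (95% interval −3.09 to 0.80, adjusted p = 0.310), was not called in the fit over all 24 libraries, but was with the 12 WT libraries alone (adjusted p = 0.000423), a fit added after seeing the data. In that fit *SMAD7* was also called, at −0.61 (adjusted p = 0.0212) compared with an adjusted p of 0.0610 over all libraries.

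WT SW480 against WT HT29 gave 6 differing genes, where 60.3% of all genes differed. SW480 was higher for *INHBA*, *TGFBR1* at 2.50 (SE 0.24, adjusted p = 3.63e-09), *SMAD7* at 1.02 (SE 0.28, adjusted p = 0.00278) and *TGFBI* at 2.42 (SE 0.27, adjusted p = 4.77e-08), and lower for *SMAD3* at −1.36 (SE 0.18, adjusted p = 6.85e-07) and *PMEPA1* at −2.72 (SE 0.25, adjusted p = 2.18e-09). For *INHBA* the ratio over 126 reads in SW480 and 1 in HT29 was 116 with a counting interval of 20.4 to 4610. *INHBA* met the filter only through SW480 libraries, where it was high, so counting it as higher is not independent of that filter. Neighbours that did not differ beyond their spread were *TGFB1* with 0.00 (95% interval −1.94 to 1.95, adjusted p = 1.00), *TGFBR2* with 0.03 (95% interval −0.37 to 0.42, adjusted p = 0.921) and *SKIL* with 0.04 (95% interval −0.25 to 0.33, adjusted p = 0.837). Between WT SW480 and WT HCT116, 9 genes were higher in SW480 and none lower, again with *INHBA* counted, where 60.5% of all genes differed. Among them *TGFB2* differed by 2.94 (SE 0.93, adjusted p = 0.00948), *TGFBR2* by 1.07 (SE 0.19, adjusted p = 4.67e-05) and *SMAD7* by 1.64 (SE 0.28, adjusted p = 2.08e-05). *SMAD3*, at 0.49 (SE 0.18, adjusted p = 0.0203), was lost without WT 4A of HCT116 (adjusted p = 0.0575) or WT 5B of SW480 (adjusted p = 0.0635), and *TGFB1* was called with the 12 WT libraries alone (adjusted p = 0.000387) and not over all libraries (adjusted p = 0.301).

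Clones of the same genotype were compared next, with the spread taken between the rounds of a clone, so that these tests speak of the clones at hand. In HT29, KO clone 38 differed from KO clone 28 in 4 genes, where 16% of all genes differed. *TGFB1* was higher in clone 38 by 5.94 (SE 0.22, adjusted p = 8.54e-06), in all 14 alternatives. *TGFBR1* was higher by 1.36 (SE 0.22, adjusted p = 0.00586), which was lost without KO 28A (adjusted p = 0.0715), and *TGFB2* by 2.13 (SE 0.59, adjusted p = 0.0458), while *SMAD7* was lower, at −0.81 (SE 0.20, adjusted p = 0.0331). Both of these last calls were lost without any 1 of the HT29 libraries other than KO 38A and KO 38B (adjusted p from 0.0613 to 0.205 for *TGFB2* and adjusted p from 0.0520 to 0.196 for *SMAD7*). *TGFBI*, low in both clones, differed by −0.63 (95% interval −1.06 to −0.19, adjusted p = 0.0589) and was called without KO 38A (adjusted p = 0.0186) or KO 38B (adjusted p = 0.0456). The HT29 WT clones differed in 2 genes, where 9.02% of all genes differed. Clone 40 was lower than clone 11 in *TGFB1*, at −0.86 (SE 0.22, adjusted p = 0.0496), and in *TGFB2*, at −2.80 (SE 0.59, adjusted p = 0.0251), and both calls were lost without any 1 HT29 library other than KO 38A and KO 38B (adjusted p from 0.0731 to 0.329 and adjusted p from 0.0527 to 0.199), so that 0 to 5 genes were called when 1 library was left out.

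Of the HCT116 KO clones, clone 47 differed from clone 44 in 2 genes, where 7.16% of all genes differed. These were *SMAD7*, higher by 1.11 (SE 0.21, adjusted p = 0.0113) and lost without KO 44A (adjusted p = 0.0841), and *TGFB1*, higher by 0.73 (SE 0.19, adjusted p = 0.0468). The latter was 0.52 (adjusted p = 0.142) without KO 47A and was lost also without KO 44A, KO 44B, WT 6A or WT 6B (adjusted p from 0.0580 to 0.270). In HCT116 the rounds deviated together, and with the round as a block 4 genes were called, *TGFBR2* at −0.55 (adjusted p = 0.00758) and *SMAD3* at −0.48 (adjusted p = 0.00153) being added. HCT116 WT clone 6 differed from clone 4 in 1 gene, where 2.61% of all genes differed. This was *TGFB2*, higher by 3.69 (SE 0.78, adjusted p = 0.0386) and lost without any 1 of the 4 WT libraries (adjusted p from 0.114 to 0.279), and with the block *TGFB1*, *TGFBR1* and *TGFBR2* were called as well, at −0.35 (adjusted p = 0.0307), 0.38 (adjusted p = 0.0284) and 0.48 (adjusted p = 0.0206).

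In SW480 no log2 difference between the KO clones exceeded 0.38 for these genes. KO clone 21 differed from KO clone 17 in 2 of them, where 28% of all genes differed. *SKIL* was higher by 0.29 (SE 0.08, adjusted p = 0.00896), which was lost without KO 17A or KO 17B (adjusted p from 0.0613 to 0.0735), and *PMEPA1* was lower, at −0.38 (SE 0.11, adjusted p = 0.0209), which was lost without KO 17A, KO 17B or KO 21A (adjusted p from 0.0815 to 0.125). WT clone 5 was higher than WT clone 4 in *SMAD3* by 0.27 (SE 0.08, adjusted p = 0.0368), where 8.88% of all genes differed, and that call was lost without WT 4A, WT 5A, WT 5B, KO 17A or KO 17B (adjusted p from 0.0525 to 0.240). For the 8 genes called between KO and WT in SW480, both KO clones deviated from the WT mean in the same direction. The same held for the genes called in HCT116 and for *TGFBI* in HT29.

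For the wider pathway, 82 further genes in 6 lists were counted. The lists were chosen with earlier results of these data known, so shares above those of all genes, here and in SW480, are a description and not independent evidence. In HT29 cells 60 of them passed the filter, 2 were higher in KO clones and none lower (2.08% and 0.476% over all genes), with a median log2 fold change of 0.02 beside 0.03 over all genes tested. Both were response genes, and of these *JUNB*, an AP-1 transcription factor, rose by 1.31 (SE 0.16, adjusted p = 0.00443). In HCT116 cells 70 genes passed, 16 were higher and 3 lower (8.05% and 5.93% over all genes), with a median of 0.12 beside −0.01. By list, 3 of 9 latency and activation genes, 1 of 7 receptors, 4 of 14 inhibitors and 8 of 28 response genes were higher, and 2 inhibitors and 1 response gene were lower, while no other ligand or transducer was called. Among called genes with a mean of at least 100, large rises were those of *SNAI2*, a repressor of epithelial genes, by 3.97 (SE 0.52, adjusted p = 0.000684) and *THBS1*, an activator of latent TGF-β, by 2.20 (SE 0.41, adjusted p = 0.00805). *SNAI2* had 5.71 to 22.0 in WT and 81.0 to 389 in KO libraries, so it met the filter only through its KO libraries. The falls were *BAMBI*, a decoy receptor that is also a known WNT target, with −2.31 (SE 0.29, adjusted p = 0.000497), the co-repressor *TGIF1* with −1.44 (SE 0.11, adjusted p = 1.15e-05) and the small GTPase *RHOB* with −0.68 (SE 0.15, adjusted p = 0.0117).

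In SW480 cells 74 genes of the wider lists passed the filter, 39 were higher and 12 lower (26.1% and 22.1% over all genes), with a median of 0.47 beside 0.00. Of 29 response genes 19 were higher and 2 lower, and of 11 latency and activation genes 8 were higher and 2 lower. Ligands counted 3 higher and 2 lower of 6, receptors 3 and 2 of 7, inhibitors 5 and 4 of 14, and transducers 1 and 0 of 7. *ANGPTL4*, a secreted lipase inhibitor, rose by 5.31 (SE 0.39, adjusted p = 4.74e-06), the activin subunit gene *INHBB* by 4.96 (SE 0.28, adjusted p = 5.17e-07) and *ITGB8*, an integrin that activates latent TGF-β, by 4.47 (SE 0.56, adjusted p = 0.000167). The largest falls were *BAMBI* with −3.85 (SE 0.18, adjusted p = 1.3e-07), *RHOB* with −1.90 (SE 0.09, adjusted p = 8.04e-08) and the co-repressor *TGIF2* with −1.20 (SE 0.10, adjusted p = 6.51e-06).

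As a description, the genes whose log2 values ran most in parallel over the 24 libraries were looked up for the called gene with the largest difference in each line, among 11762 genes. For *TGFBI* these were *STRA6* (Pearson's r = 0.985), *PCDHGC3* (0.974) and *PLBD1* (0.972), for *SMAD7* they were *EGR1* (0.902), *LAS1L* (0.901) and *SH3RF2* (0.889), and for *PMEPA1* they were *PLAG1* (0.980), *ZBTB18* (0.974) and *TGOLN2* (0.972). The points share lines, clones and rounds. *STRA6*, for instance, averaged 642 over the WT and 79.8 over the KO libraries of HT29, where *TGFBI* also fell, but 5322 and 4822 over those of SW480, where *TGFBI* rose.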

How the data were processed

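RNA of 24 cultures was sequenced with the TruSeq RNA v2 kit, which does not keep the strand. Per the study's methods and the labels, the authors converted reads with bcl2fastq, aligned them to GRCh37 with STAR 2.7.5b, counted them per gene with featureCounts 2.0.1 and normalized with DESeq2 2.11.40.6. The annotation and strand setting were not given in the sources used here. The deposited values per library are a signal: gene counts that the authors divided by a size factor. All values were whole reads after rescaling (tolerance 0.01), which gave the depth per library. Deposited tables of the authors' own comparisons (means, fold changes and p-values) were not used.

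Samples were grouped by the line, genotype and clone in the labels. limma 3.58.1 in R 4.3.3 (trend, robust) was fitted to log2(value + 1), so fold changes of low genes are understated. Genes had to reach 10 in at least 4 libraries, and p-values were adjusted by Benjamini-Hochberg over all genes tested. Fits within a line used its 8 libraries, and fits between lines used all 24. Alternatives were edgeR 4.0.16 and DESeq2 1.42.0 on the recovered reads, clone means, a random effect for clone, a block for the round, pseudocounts of 0.1 and 5, other filters, and each library or clone left out. The statistics were tested on simulated data. These were independent libraries with a fixed dispersion and no clone or round effect, so they do not test the p-values of this design. Tables and plots were made with Python 3.11.15, numpy 2.4.6, pandas 2.3.3 and matplotlib 3.10.9.

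Symbols matched 95.8% of IDs, and positions and exon lengths are from GENCODE on GRCh37. TPM was computed from the recovered reads and exon lengths. The 10 genes and the lists were chosen with earlier results of these data known. Named were the 10 genes, *CTNNB1*, *SMAD4*, and per line the 3 largest called rises and falls of the wider lists with a mean of at least 100, of which 1 gene is not reported here; for the called gene with the largest change in each line, the 3 most correlated genes were named. The endothelial marker *PECAM1* was not matched by symbol. Rounds A and B come from the labels. The correlation of same-round deviations was 0.182 to 0.374 in HCT116 (6 of 6 pairs over 0.1), −0.309 to 0.424 in HT29 (2 of 6) and −0.0411 to 0.127 in SW480 (1 of 6). Rounds thus deviated together in HCT116. The main fits held no term for the round, in HCT116 as in the other lines, and the block was fitted as an alternative only.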

Additional observations from a re-analysis of the deposited data

Results flagged for a closer look

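In 6 of 60 groups of 4 libraries 1 library lay apart from the other 3 by Dixon's criterion, where chance gives about 1 in 20 groups. These were *TGFB2* in HCT116 KO 47A (13.9), *INHBA* in HT29 WT 11B (1.01) and HT29 KO 38A (0.949), each of the latter being 1 read, *TGFBR2* in HT29 WT 11A (3472), and *SMAD3* in HT29 KO 38B (3806) and SW480 KO 21A (3189.8), all in normalized counts.

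The effect of the knock-out differed between lines by the test of the difference itself in 15 cases, given as log2 differences. For HCT116 against HT29 these were *TGFB2* (−4.83), *INHBA* (2.37), *TGFBR2* (−1.49), *SMAD3* (1.98), *SMAD7* (−2.0), *PMEPA1* (2.18) and *TGFBI* (5.21), where *INHBA* and *TGFBI* had at most 11 reads in any HCT116 library and *INHBA* met the filter only through SW480 libraries. For SW480 against HT29 they were *SMAD7* (−1.37), *SKIL* (0.68), *PMEPA1* (3.27) and *TGFBI* (5.74). For SW480 against HCT116 they were *TGFB2* (4.99), *TGFBR2* (2.05), *SMAD3* (−1.33) and *PMEPA1* (1.09).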

How the results depend on the processing

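Over all alternatives, 2271 of 2525 values of the 10 genes kept their direction and side of the threshold, 141 lost and 55 gained a call, 58 changed sign, and 0 of the latter were called in the report. The sign changes for KO against WT were all in HT29. They were *TGFBR2* in edgeR (−0.017) and DESeq2 (−0.023). Without KO clone 28 they were *TGFB1* 0.21, *TGFBR2* −0.13 and *SMAD3* −0.089, and without KO clone 38 *TGFBR1* −0.47 and *SMAD7* 0.058. Without WT clone 11 they were *SMAD3* −0.13 and *SKIL* −0.076, and without WT clone 40 *TGFB2* −0.0094, *TGFBR2* −0.14 and *SMAD7* 0.041. Leaving out 1 library gave −0.082 to 0.18 for *TGFBR2*, −0.039 to 0.48 for *TGFBR1*, −0.022 to 0.32 for *SMAD3* and −0.015 to 0.21 for *SKIL*.

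Counts of called genes moved as follows. With clone means 0 were called in HT29 KO against WT and 3 in HCT116, and 2, 2 and 1 for the KO effect in HCT116 against HT29, SW480 against HT29 and SW480 against HCT116. With a value of at least 10 in every library, which leaves fewer genes to test, those effects gave 3, 2 and 2, and the WT lines gave 3 for SW480 against HT29 and 5 for SW480 against HCT116. HT29 KO gave 2 in DESeq2 and 2 without KO clone 38. HCT116 KO gave 3 with clone as a random effect and 3 without KO clone 44. For clones, HT29 WT gave 1 in edgeR, with the block, with a pseudocount of 0.1 and without a filter, HCT116 KO gave 4 with the block and 4 without a filter, HCT116 WT gave 4 with the block and 0 with a pseudocount of 0.1, and SW480 WT gave 2 without a filter. The round as a block, fitted as an alternative in every line, changed no other count by over 1.5 times. Leaving out 1 library gave 1 in HT29 KO, 3 to 5 in HCT116 KO and 8 in SW480 KO, and for clones 1 to 7 (HT29 KO), 0 to 5 (HT29 WT and HCT116 KO), 0 to 1 (HCT116 WT and SW480 WT) and 0 to 2 (SW480 KO). The fit of 12 WT libraries and the read ratios without KO 47A were chosen after seeing the data. The former gave 8, 6 and 10 genes. Other causes of these moves were not tested. At 1 to 11 reads a library, depth limits *INHBA* and *TGFBI* in HCT116.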

Other observations

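*BAMBI*, which encodes a decoy receptor of the TGF-β family, fell in HCT116 and SW480, and its values by library were as follows. In SW480 they were 7383, 6973, 7515 and 6700.1 in WT and 372, 391, 642 and 638 in KO libraries, and in HCT116 309, 316, 521 and 536 and 59.9, 54.6, 109 and 119.9. HT29 WT libraries had 0, 1.01, 0 and 0, while HT29 KO libraries had 4.02, 1.96, 85.4 and 158, the higher values being those of clone 38. The gene did not pass the filter in HT29 and was not tested there.

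The integrin gene *ITGB8* differed between clones of a genotype in 3 of 6 comparisons. SW480 libraries had 26.3, 34.9, 32.8 and 65.6 in WT and 404, 410.1, 1741 and 1846 in KO clones, with both libraries of KO clone 21 above those of KO clone 17. In HCT116 the values of 24.8, 24.1, 442 and 358 in WT and 341, 575, 49.2 and 72.3 in KO clones were high in 1 clone of each genotype. The log2 differences were 2.14 (SE 0.26, adjusted p = 7.98e-05) for SW480 KO clone 21 against 17, 3.97 (SE 0.29, adjusted p = 9.41e-05) for HCT116 WT clone 6 against 4 and −2.87 (SE 0.29, adjusted p = 0.000313) for HCT116 KO clone 47 against 44, by limma. The SW480 WT clones and both HT29 pairs did not pass (adjusted p from 0.206 to 0.851). The activin subunit gene *INHBB* had 128, 133, 86.9 and 83.2 in SW480 WT and 4881, 4524, 2390.4 and 2297 in SW480 KO libraries. *SNAI2* had 29.3, 31.2, 66.6 and 84.2 and 1231, 1243, 807 and 879 there, and no read in any HT29 library.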
